A study of Homo sapiens with 8 samples.

Results

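The genes described here are 10 classical chaperones and proteases of mitochondria, found by their symbols among 61806 genes of the deposited table. Mitochondria refold imported proteins with matrix chaperones and clear the ones that cannot be folded with ATP-driven proteases, and a loss of balance between them is known to start a nuclear response, the mitochondrial unfolded protein response, in which messages for both classes rise. In mammalian cells this response is tied to the transcription factors ATF4, DDIT3, CEBPB and ATF5, which also serve the integrated stress response. The 5 chaperones are HSPD1 and HSPE1 (the barrel and the lid of the matrix chaperonin), HSPA9 (mortalin, the matrix Hsp70), TRAP1 (the mitochondrial Hsp90) and DNAJA3 (a J-domain partner of HSPA9). The 5 protease genes are LONP1 (the Lon protease of the matrix), CLPP and CLPX (the peptidase and the unfoldase of the Clp protease), YME1L1 (the inner membrane AAA protease that faces the intermembrane space) and AFG3L2 (a subunit of the AAA protease that faces the matrix).

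All libraries came from wildtype N/TERT-1 cells (N/TERT cells), an immortalized line of human epidermal keratinocytes, so each value describes a single line. Cells of the control group received ethanol, the solvent, and cells of the other group received oligomycin, an inhibitor of the ATP synthase, together with antimycin A, an inhibitor of complex III (O/A). The sample labels give neither dose nor time. A legend gives 4 hours for this comparison, and the doses given for O/A in other experiments on these cells were 10 µM oligomycin with 4 µM antimycin A. Each group had 4 libraries of polyadenylated RNA from independent experiments, and a library held 17210404 to 20999927 counts (ethanol) or 17689760 to 19263046 counts (O/A).

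All 8 keratinocyte markers had at least 1 FPKM (fragments per kilobase of exon, scaled to the library total), with a summed level of 3326 to 3574 FPKM under ethanol and 3072 to 3226 FPKM under O/A. Of 6 fibroblast markers only COL1A1 passed 1 FPKM (highest 2.94), and of 5 melanocyte markers only MITF did (highest 1.3). The fibroblast marker COL1A2, the melanocyte markers MLANA and TYR and the immune markers PTPRC and CD207 were listed at 0 in every library. The keratinocyte sum was lower in every O/A library, and the sum of 5 immune markers, none of which reached 1 FPKM, was higher (0.65 to 0.88 against 0.46 to 0.62 FPKM). The part of either in the results below was not tested. No library was a copy of another, since libraries of the same condition differed by 1.78 to 5.95 times their counting noise (chi-square per degree of freedom over 11168 genes). In bulk RNA, fewer cells of a kind and less RNA per cell cannot be told apart.

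HSPD1 and HSPE1 are neighbours on chromosome 2 that are read in opposite directions from one short stretch, shown here because the pair was compared below. RefSeq (GRCh38.p14) places the upstream start of HSPD1 at 197500274 on the minus strand and that of HSPE1 at 197500379 on the plus strand, 105 bases apart. The window of HSPE1, from 250 bases before its start to 50 bases after it, lies at chr2:197500129-197500428 on the plus strand, and capitals mark the 104 bases between the starts.
HSPE1 and HSPD1: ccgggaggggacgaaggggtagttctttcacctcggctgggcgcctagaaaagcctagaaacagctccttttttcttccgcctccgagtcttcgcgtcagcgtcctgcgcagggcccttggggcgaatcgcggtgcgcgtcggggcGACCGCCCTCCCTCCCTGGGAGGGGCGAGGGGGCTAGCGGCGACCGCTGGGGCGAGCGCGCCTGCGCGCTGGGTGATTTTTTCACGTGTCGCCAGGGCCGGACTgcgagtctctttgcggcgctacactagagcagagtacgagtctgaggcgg
RefSeq gives HSPD1 a further start at 197499840. Its window, at chr2:197499791-197500090 on the minus strand, is shown because it holds 3 overlapping heat shock element cores, in capitals, which begin 245, 240 and 235 bases before the start.
HSPD1, further start: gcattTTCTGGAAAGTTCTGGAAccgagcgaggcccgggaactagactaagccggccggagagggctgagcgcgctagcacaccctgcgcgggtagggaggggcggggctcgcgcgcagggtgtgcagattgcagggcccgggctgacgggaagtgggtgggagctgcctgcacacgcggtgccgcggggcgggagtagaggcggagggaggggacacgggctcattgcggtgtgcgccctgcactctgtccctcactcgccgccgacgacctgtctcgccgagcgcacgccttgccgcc
The windows of HSPA9 and LONP1 are shown because these genes had the largest rises among the 10. That of HSPA9 lies at chr5:138575352-138575651 on the minus strand, and its capitals mark 1 heat shock element core across the start. That of LONP1 lies at chr19:5720097-5720396 on the minus strand, with no match to any motif searched. RefSeq gives LONP1 a further start at 5720452, whose window also held no match and is not shown.
HSPA9: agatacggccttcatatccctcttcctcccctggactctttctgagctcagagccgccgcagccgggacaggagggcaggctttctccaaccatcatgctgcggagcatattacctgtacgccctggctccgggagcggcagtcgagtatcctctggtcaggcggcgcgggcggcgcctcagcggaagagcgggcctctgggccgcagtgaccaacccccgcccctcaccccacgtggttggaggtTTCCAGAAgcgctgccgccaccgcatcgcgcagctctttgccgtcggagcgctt
LONP1: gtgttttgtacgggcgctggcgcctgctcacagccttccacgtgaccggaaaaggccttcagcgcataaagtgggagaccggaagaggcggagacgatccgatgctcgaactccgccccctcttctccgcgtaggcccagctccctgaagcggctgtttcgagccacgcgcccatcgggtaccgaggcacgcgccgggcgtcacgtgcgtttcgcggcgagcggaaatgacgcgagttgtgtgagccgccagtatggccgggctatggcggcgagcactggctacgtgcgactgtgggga

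The motifs were searched on both strands of 10 windows of 8 members. CLPP and YME1L1 had no entry in the promoter table. The C/EBP-ATF response element TGATGNAAN matched none of these windows, and 3.61% of all 35116 promoter windows of this length hold it. Heat shock element cores (TTCNNGAA or GAANNTTC) matched the windows of HSPD1 and HSPA9, against 13.5% of all windows. The cyclic AMP response element core TGACGT matched those of TRAP1 and AFG3L2, against 7.98%, and the CCAAT box those of DNAJA3 and CLPX, against 34.6%. These matches describe letters in the window and were not tested as binding sites.

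O/A raised the messages of 2 of the 10 genes, HSPA9 by 41.8% and LONP1 by 33.1%, and lowered none past both thresholds, which were 0.05 for the adjusted p-value and 0.25 for the absolute log2 fold change. All 10 genes had enough counts to be tested. Over the 14893 genes tested with edgeR's quasi-likelihood test, 34.7% passed the same thresholds, 15.8% upwards and 18.9% downwards, so the count of members read against this background is not a result about the group. Without the fold change threshold, 5 members were higher and 1, DNAJA3, was lower, where 53.7% of all genes tested passed, 26.0% higher and 27.7% lower. At an unadjusted p-value under 0.05, 5 members were higher and HSPE1, DNAJA3 and CLPX were lower, and DESeq2 also placed 0 members past both thresholds downwards. The share of all genes tested that passes this unadjusted cutoff was not counted, but it is at least the 53.7% that passed the adjusted one. The median log2 fold change of the 10 was 0.058, with a range from -0.13 to 0.50, and the median of all genes tested was -0.00040.

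**Figure D1:**
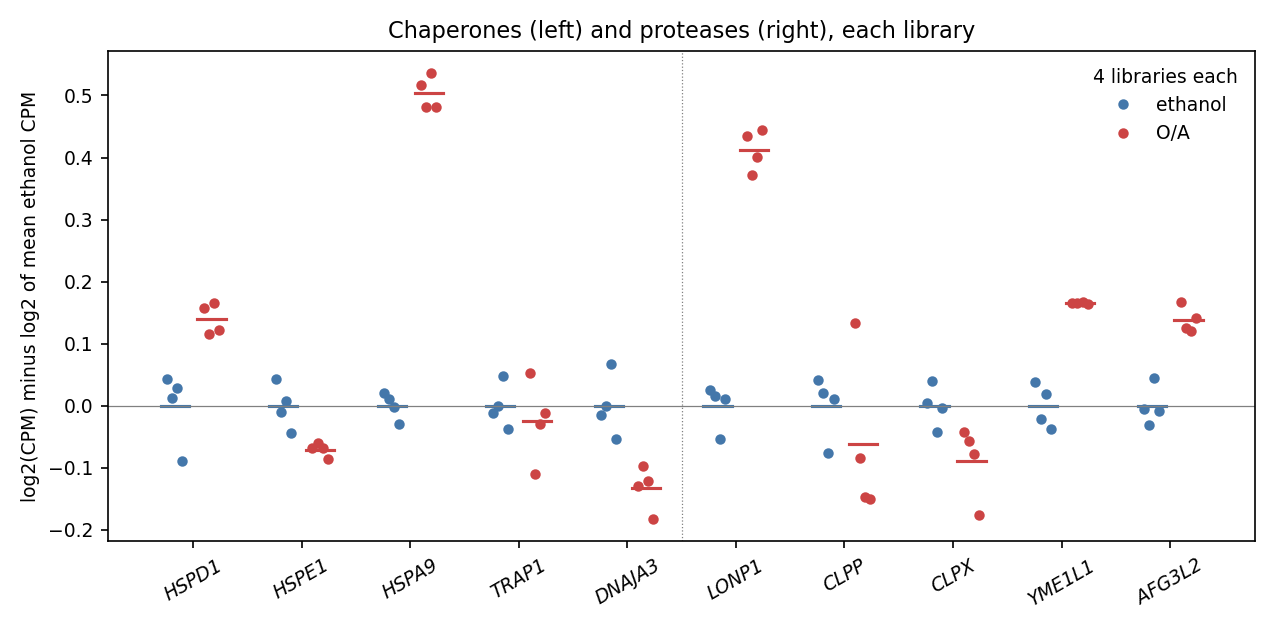
Each point is 1 library and each bar the mean of 4, in ethanol (blue) and O/A (red), on a log2 scale of TMM-scaled CPM set to the ethanol mean of the gene. HSPA9 and LONP1 stand clear of ethanol by a log2 difference of 0.50 and 0.41, whereas the O/A points of TRAP1 and CLPP overlap ethanol.

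HSPA9 drives the import motor and folds proteins as they enter the matrix. Its gene (ENSG00000113013) lies on chromosome 5 of GRCh38 from 138553756 to 138575675 on the minus strand. In CPM, the count scaled to a library size corrected by TMM factors, HSPA9 had 459, 456, 452 and 443 in the ethanol libraries and 648, 632, 656 and 632 in the O/A libraries. The lowest O/A library lay far above the highest ethanol library, and each group spanned a narrow range. The log2 fold change was 0.50 (standard error 0.025, 95% interval 0.45 to 0.55, edgeR's quasi-likelihood test, adjusted p = 1.70e-23), and 19.5% of all genes tested changed by more in either direction. It stayed between 0.45 and 0.52 over 16 alternatives.

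LONP1 degrades oxidized and misfolded proteins of the matrix. Its gene (ENSG00000196365) lies on chromosome 19 from 5691834 to 5720572 on the minus strand. LONP1 had 68.9, 68.4, 65.2 and 68.2 CPM in ethanol and 91.5, 87.6, 89.3 and 92.1 CPM in O/A. Again every O/A library lay above every ethanol library. The log2 fold change was 0.41 (standard error 0.036, 95% interval 0.34 to 0.48, adjusted p = 3.23e-14 from the same test), and it lay between 0.35 and 0.44 over 16 alternatives. RPL36, read in the opposite direction next to it, shares 42 exonic bases with LONP1, or 0.835% of the exonic bases of LONP1.

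Of the chaperonin genes, HSPD1 was higher in O/A by the adjusted p-value and HSPE1 did not pass it. HSPD1 had 552, 541, 547 and 504 CPM in ethanol and 598, 581, 602 and 584 CPM in O/A, so that the groups did not overlap. Its log2 fold change was 0.14 (95% interval 0.087 to 0.19, adjusted p = 1.20e-05 by edgeR's quasi-likelihood test), a gain of 10.2% that lay within the fold change threshold. HSPE1 had 123, 119, 121 and 116 CPM in ethanol and 114, 115, 114 and 113 CPM in O/A. All O/A libraries lay below all ethanol libraries, but the log2 fold change of -0.070 (95% interval -0.13 to -0.0069) had an adjusted p of 0.0558 in the same test and of 0.156 with DESeq2. It passed 0.05 in 4 of 16 alternatives (library totals as scaling, both limma fits and without ethanol replicate 4), with the lowest value at 0.00164, and in none of them did the change pass the fold change threshold.

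The log2 ratio of HSPD1 to HSPE1 combines the changes of both genes, which had opposite signs, so by construction it shifted by more than either. The log2 ratio of their CPM went from 2.16 ± 0.031 (SD, n = 4 libraries) in ethanol to 2.37 ± 0.026 (SD, n = 4) in O/A, a gain of 15.8% in the ratio (exact permutation test, two-sided, p = 0.0286, adjusted p = 0.0327 over 8 ratios). This p is the smallest that 4 libraries against 4 allow. It follows from the separation of HSPD1 upwards and of HSPE1 downwards, so it adds nothing to the values of the single genes. The same holds below for the ratios of AFG3L2 to SPG7 and of LONP1 to LONP2. For the ratios of HSPA9 to GRPEL1, HSPA5 and HSPA8 and of TRAP1 to HSP90B1, the CPM ranges of the single genes already fix the separation. Their p-values therefore add nothing to the single genes either. The ratio rests on genes whose reads are partly uncertain. The genes share 135 exonic bases on opposite strands, 17.9% of the exonic bases of HSPE1 are shared with some other gene, and whether reads were counted by strand is not stated. Genes named as copies of HSPE1 or as its read-through into MOB4 held reads amounting to 1.70% to 2.80% of those on HSPE1, and copies of HSPD1 held 0.873% to 1.28% of those on HSPD1. With such reads added to the members, both genes kept their direction and stayed within the fold change threshold.

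TRAP1, a chaperone tied to respiration and cell survival, had 92.9, 93.6, 96.9 and 91.3 CPM in ethanol and 97.1, 86.8, 91.8 and 92.9 CPM in O/A. The groups overlapped, and the highest and the lowest value were both O/A libraries. The log2 fold change was -0.023 (95% interval -0.095 to 0.048, adjusted p = 0.609 by edgeR's quasi-likelihood test), an interval that spans a loss of 6.36% to a gain of 3.39%. Without O/A replicate 2 it turned to 0.015. Of the exonic bases of TRAP1, 28.5% are shared with other genes, most of them with DNASE1 on the opposite strand, which had 120 to 205 counts per library.

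DNAJA3 stimulates the ATPase of HSPA9. It had 77.5, 78.2, 82.0 and 75.4 CPM in ethanol and 71.6, 73.2, 71.9 and 69.0 CPM in O/A, with all O/A libraries below all ethanol libraries. Its log2 fold change of -0.13 (95% interval -0.21 to -0.056, adjusted p = 0.00254 from the same test) was the lowest of the 10 and lay within the fold change threshold.

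The Clp protease genes did not pass the adjusted p-value. CLPP had 25.2, 24.8, 23.2 and 24.6 CPM in ethanol and 26.8, 23.1, 22.1 and 22.0 CPM in O/A, where O/A replicate 1 lay above every ethanol library and the other O/A libraries lay below every one of them. Its log2 fold change was -0.059 (95% interval -0.18 to 0.065, adjusted p = 0.440 by edgeR's quasi-likelihood test) and, without O/A replicate 1, -0.12. CLPX had 65.3, 67.0, 63.2 and 64.9 CPM in ethanol and 63.2, 62.6, 61.7 and 57.6 CPM in O/A. The lowest ethanol and the highest O/A library were nearly equal but did not overlap, with a log2 fold change of -0.087 (95% interval -0.17 to -0.0070, adjusted p = 0.0607 from the same test). With library totals as scaling and in both limma fits its adjusted p was 0.00422 to 0.0107, still within the fold change threshold. The log2 ratio of CLPP to CLPX changed by 0.027, from -1.41 ± 0.033 to -1.39 ± 0.11 (SD, n = 4 libraries each, exact permutation test, p = 0.771), and it changed by -0.023 without O/A replicate 1.

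The inner membrane AAA proteases were both higher in O/A, by 12.2% for YME1L1 and 10.1% for AFG3L2. YME1L1 had 281, 270, 278 and 267 CPM in ethanol and 307, 307, 308 and 307 CPM in O/A. The O/A libraries were almost equal and all lay above ethanol, for a log2 fold change of 0.17 (95% interval 0.11 to 0.22, adjusted p = 3.63e-07 by edgeR's quasi-likelihood test). AFG3L2 had 103, 101, 106 and 102 CPM in ethanol and 116, 112, 112 and 114 CPM in O/A, again without overlap, for a log2 fold change of 0.14 (95% interval 0.074 to 0.20, adjusted p = 2.39e-04 from the same test). Both changes lay within the fold change threshold. YME1L1 shares 443 exonic bases, or 6.04% of its own, with MASTL on the opposite strand, which had 742 to 1003 counts per library. What this overlap adds to YME1L1 was not tested. AFG3L2 shares 837 exonic bases, or 11.7% of its own, with TUBB6 on the opposite strand, for which the ethanol libraries held 7203 to 8401 counts and the O/A libraries 5669 to 6102, and what this overlap adds to AFG3L2 was not tested.

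Counted by separation, every O/A library lay above every ethanol library for 5 members and below for 3, while TRAP1 and CLPP overlapped. Of all genes tested 47.6% were separated in this way, 22.8% above and 24.8% below. Dixon's test was run on the members and on 19 genes named below, which made 58 groups of 4 libraries, and it set no library apart, where chance alone gives 2.9.

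**Figure D2:**
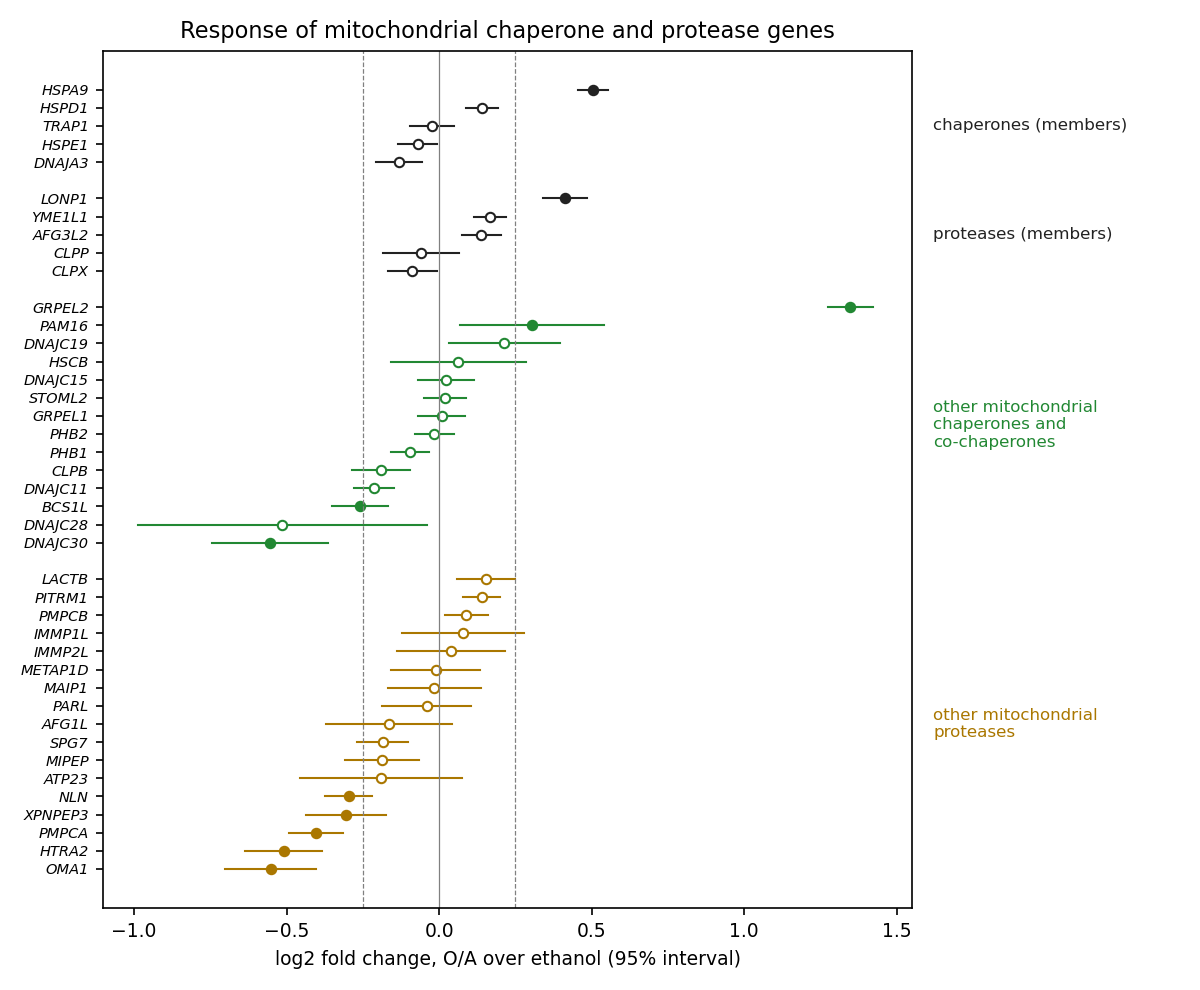
The log2 fold change of O/A over ethanol with its 95% interval is plotted for each tested gene of 4 groups, with filled points for genes past both thresholds and dashed lines at a log2 fold change of -0.25 and 0.25. HSPA9 and LONP1 are the filled members, GRPEL2 lies farthest to the right at 1.35, and all 5 filled points among the other proteases lie to the left.

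The other chaperone and protease genes of mitochondria give the surroundings of these members. Of 15 further chaperones and co-chaperones, 14 could be tested, 2 rose (GRPEL2 and PAM16, against 15.8% of all genes tested) and 2 fell (DNAJC30 and BCS1L, against 18.9%), with a median log2 fold change of -0.0031. GRPEL2, one of the nucleotide exchange factors that reset HSPA9, had 44.6, 46.7, 45.2 and 45.0 CPM in ethanol and 115, 115, 115 and 117 CPM in O/A. That is a 2.55-fold rise, or a log2 fold change of 1.35 (95% interval 1.27 to 1.42, adjusted p = 8.14e-35 by edgeR's quasi-likelihood test), and only 2.36% of all genes tested changed by more. GRPEL1, the other exchange factor, had 70.2 to 76.3 CPM in ethanol and 70.2 to 75.7 CPM in O/A, with a log2 fold change of 0.0089 (95% interval -0.068 to 0.086). The log2 ratio of HSPA9 to GRPEL1 rose from 2.63 ± 0.052 to 3.12 ± 0.042 (SD, n = 4 libraries each, exact permutation test, p = 0.0286, adjusted p = 0.0327).

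The remaining called genes of this list moved less. PAM16, a subunit of the import motor with 79 to 137 counts per library, had a log2 fold change of 0.30 (adjusted p = 0.0257), and this call was lost in 8 of 16 alternatives. DNAJC30, a J-domain protein of the inner membrane, had 10.8 to 11.7 CPM in ethanol and 6.77 to 9.15 CPM in O/A, a log2 fold change of -0.55. BCS1L, the AAA chaperone that helps to assemble complex III, had a log2 fold change of -0.26, which fell within the threshold without O/A replicate 2 (-0.23), O/A replicate 3 (-0.24), ethanol replicate 2 (-0.24) or ethanol replicate 4 (-0.25).

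Of 17 other proteases and partner genes, all tested, 0 rose past both thresholds, against 15.8% of all genes tested. Past the same thresholds 5 fell (29.4%, against 18.9% of all genes tested), and the median log2 fold change was -0.16. With an unadjusted p under 0.05, a cutoff that at least 53.7% of all genes tested passed, 3 were higher and 7 lower. DESeq2 called 0 up and 5 down. The lowest were OMA1, a stress-activated inner membrane protease (20.4, 19.9, 22.2 and 20.2 CPM in ethanol against 15.4, 14.6, 11.7 and 14.7 in O/A, log2 fold change -0.55), HTRA2, a serine protease of the intermembrane space (-0.51), and PMPCA, a subunit of the peptidase that cuts targeting signals (-0.40). The others, XPNPEP3 (-0.30) and NLN (-0.30), are named only because they complete this count. SPG7, which joins AFG3L2 in the same protease, had 72.6 to 81.0 CPM in ethanol and 61.2 to 70.1 CPM in O/A, a log2 fold change of -0.18 (adjusted p = 1.86e-04 by edgeR's quasi-likelihood test). The log2 ratio of AFG3L2 to SPG7 went from 0.45 ± 0.092 to 0.77 ± 0.10 (SD, n = 4 libraries each, exact permutation test, p = 0.0286, adjusted p = 0.0327).

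Among 7 listed genes tied to the response, 4 rose and 1 fell, where 15.8% and 18.9% of all genes tested did so. ATF4 rose by 1.54, DDIT3 by 3.90 and CEBPB by 2.11 on the log2 scale, and DELE1, named as the remaining rise, by 0.26. The call of DELE1 was lost in 6 of 16 alternatives, with library totals (0.21), in both limma fits (0.21 and 0.19) and without O/A replicate 3 (0.24), O/A replicate 4 (0.24) or ethanol replicate 3 (0.24). ATF5, the factor most often named for the mitochondrial response in mammals, had 38.1, 40.9, 40.7 and 39.2 CPM in ethanol and 27.4, 24.6, 23.2 and 25.6 CPM in O/A, a log2 fold change of -0.66 (95% interval -0.77 to -0.55, adjusted p = 2.46e-15 by edgeR's quasi-likelihood test). Both HSF1 (0.087) and UBL5 (0.0023) lay within the fold change threshold. HSF1 had an adjusted p of 0.0347 by edgeR's quasi-likelihood test, with all O/A libraries above all ethanol libraries. UBL5 had an adjusted p of 0.971 in the same test, and its groups overlapped.

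**Figure D3:**
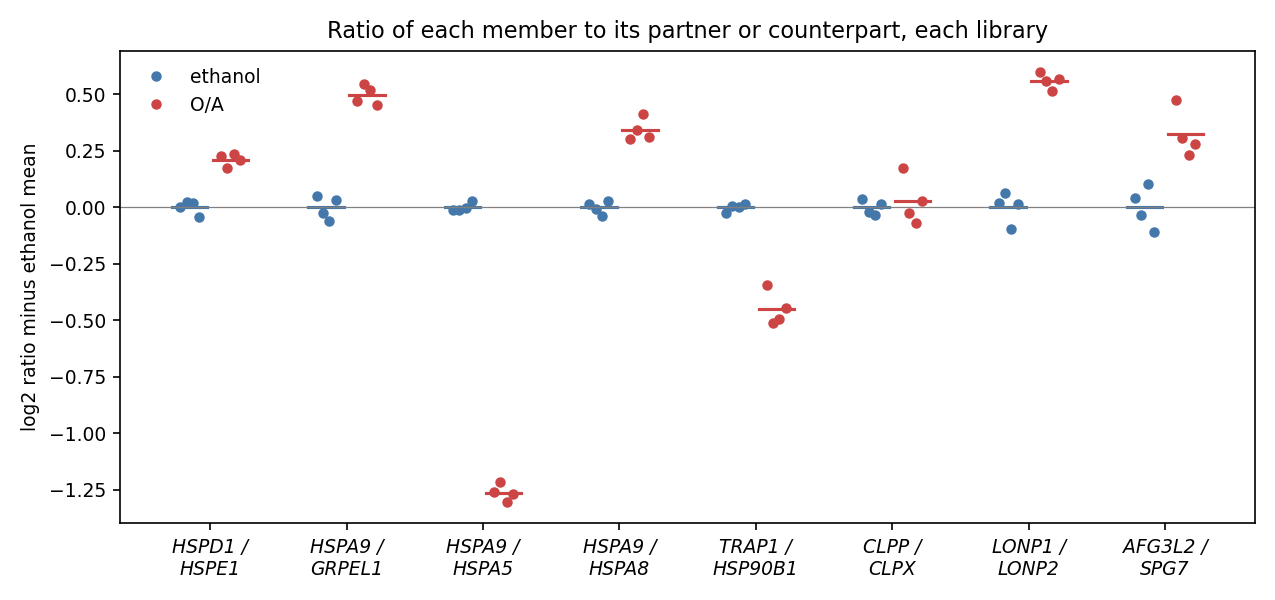
The log2 ratio of CPM of a member to its partner or counterpart, less its ethanol mean, is plotted for each library in ethanol (blue) and O/A (red), with bars for the mean of 4. The groups are apart for 7 of 8 ratios, from -1.26 for HSPA9 to HSPA5 to 0.56 for LONP1 to LONP2, and overlap for CLPP to CLPX. Of all single genes tested 47.6% were separated. The share over all possible ratios was not computed, so the count of separated ratios is not a result about the members.

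Members were set against relatives in other compartments to ask whether the response was shared. Of 19 such genes tested, 5 rose past both thresholds and 0 fell, where 15.8% and 18.9% of all genes tested did so. The 5 were HSPA5, HSPA1A, HSPA1B and the Hsp90 genes HSP90B1 and HSP90AA1, the last named to complete this count. At an unadjusted p under 0.05, a cutoff that at least 53.7% of all genes tested passed, 8 were higher and 6 lower. DESeq2 called 5 up and 0 down. The median log2 fold change of the 19 was 0.026, and 8 of the 19 are subunits of a single complex, the cytosolic chaperonin. HSPA5, the Hsp70 of the ER, had a log2 fold change of 1.77, and HSPA8, the constitutive Hsp70 of the cytosol, 0.16. The log2 ratio of HSPA9 to HSPA5 fell from -0.44 ± 0.019 to -1.70 ± 0.035, while that of HSPA9 to HSPA8 rose from -2.33 ± 0.031 to -1.99 ± 0.050 (SD, n = 4 libraries each, exact permutation test, p = 0.0286 and adjusted p = 0.0327 for each). The change of HSPA9 thus lay between those of its ER and its constitutive cytosolic relative. The inducible cytosolic genes HSPA1A (0.72) and HSPA1B (0.67) also rose, and since they are nearly identical copies their reads cannot be fully told apart.

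Among the Hsp90 and Lon families, TRAP1 against HSP90B1, the Hsp90 of the ER (log2 fold change 0.43), went from a log2 ratio of -2.80 ± 0.017 to -3.25 ± 0.077. LONP1 against LONP2, the Lon protease of peroxisomes (log2 fold change -0.15), went from -0.43 ± 0.067 to 0.13 ± 0.033 (SD, n = 4 libraries each, exact permutation test, p = 0.0286 and adjusted p = 0.0327 for both ratios). The other listed Hsp90 genes were not compared with TRAP1 by ratio. HSP90AA1 rose by a log2 of 0.39. HSP90AB1, named after its value was seen, had a log2 fold change of -0.031 (adjusted p = 0.284 by edgeR's quasi-likelihood test), and its groups overlapped like those of TRAP1.

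**Figure D4:**
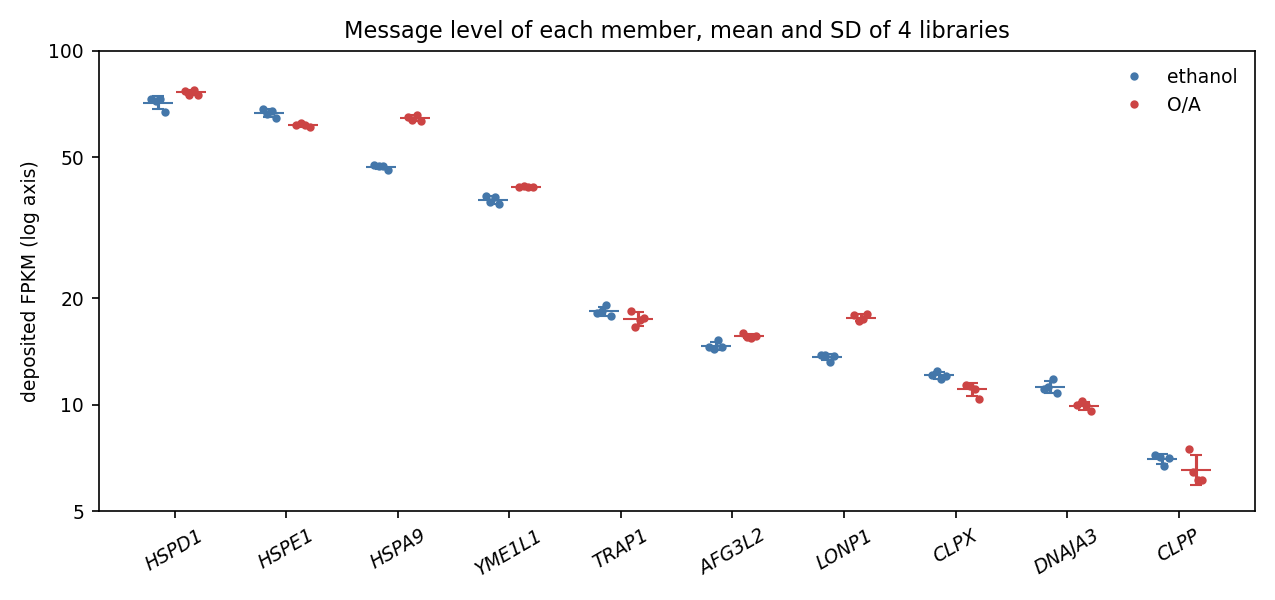
The deposited FPKM of each member is plotted on a log axis for each library, with the mean and SD of 4 libraries, in ethanol (blue) and O/A (red). HSPD1 is highest (71.4 FPKM with ethanol, 76.3 FPKM with O/A) and CLPP lowest (7.04 and 6.56 FPKM).

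Scaled by the exonic size of each gene, the members ranged over about a factor of 10 in level. In ethanol HSPD1 led at 71.4 ± 2.95 FPKM (SD, n = 4 libraries), followed by HSPE1 at 66.8 ± 1.64 FPKM, and the ranges of these neighbours overlapped. HSPA9 had 47.01 ± 0.706 FPKM, YME1L1 37.9 ± 0.933, TRAP1 18.4 ± 0.525, AFG3L2 14.7 ± 0.373, LONP1 13.7 ± 0.286, CLPX 12.1 ± 0.260, DNAJA3 11.2 ± 0.437 and CLPP 7.04 ± 0.223 FPKM, and in this order only CLPX and DNAJA3 overlapped. In O/A HSPA9 reached 64.6 ± 1.13 FPKM and took the second place from HSPE1 (61.6 ± 0.591 FPKM), and LONP1 reached 17.6 ± 0.374 FPKM, level with TRAP1 at 17.5 ± 0.781 FPKM, with overlapping ranges. The other O/A levels were 76.3 ± 1.22 FPKM for HSPD1, 41.2 ± 0.0975 for YME1L1, 15.6 ± 0.230 for AFG3L2, 11.0 ± 0.469 for CLPX, 9.94 ± 0.261 for DNAJA3 and 6.56 ± 0.633 for CLPP.

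The order depends on the length used. The deposited size counts every annotated exon, 7629 bases for HSPD1 and 1823 for HSPE1, whereas the canonical transcripts in GENCODE have 2245 and 557 bases. Per canonical length, a choice made after seeing the data, HSPD1 had 243 and 259, HSPE1 219 and 202 and HSPA9 104 and 143 on the FPKM scale in ethanol and in O/A, so that HSPA9 stayed below HSPE1 in O/A and LONP1 (22.2 and 28.7) stayed below TRAP1 (42.8 and 40.8).

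The genes whose 8 library values lay closest to those of a member, by Euclidean distance of centred log2 CPM over 9101 protein-coding genes, came from varied functions. For HSPA9 they were ATP6V1B2, a subunit of the vacuolar proton pump, at a distance of 0.030, then LMAN1 (0.046), LARP1B (0.047) and MARK3 (0.054). For LONP1 they were PEA15 (0.063), RAB21 (0.073), SSR1 (0.075) and MOB3C (0.076). The genes near HSPA9 had log2 fold changes of 0.49 to 0.51 and those near LONP1 of 0.38 to 0.42. No other member appeared in either set, but none had a log2 fold change in the matching range, so their absence says nothing more.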

How the data were processed

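Condition and replicate came from the sample titles. The authors used HISAT2 2.0.1 to place the read pairs on GRCh38.p13 and counted them per Ensembl gene with HTSeq 0.6.1, and the deposited counts are not normalized. The Ensembl release and strand setting are not given in the sources used here. FPKM values were made by the authors, and each lay within 0.005 of the count divided by exonic size and library total. A deposited table of the authors' DESeq2 comparison (fold changes and p-values) was not used.

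Counts were tested with edgeR 4.0.16 in R 4.3.3 (TMM scaling, robust quasi-likelihood test, Benjamini-Hochberg adjustment) over genes that reached 10 counts in 4 or more libraries. In simulated counts with 200 changed genes among 14893, this test recovered 105 of 115 changed by a log2 of 1 and 58 of 85 changed by 0.5, with 6 false calls. Far more genes were called in the real data (34.7%), so these rates may not carry over to them. Ratios of gene pairs were compared by exact permutation tests.

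Alternatives were DESeq2 1.42.0, median-ratio and library-total scaling, no filter, limma 3.58.1 on log2(FPKM + 0.1) and log2(FPKM + 1), a block for the replicate number, leaving out single libraries, other fold change thresholds and look-alike reads added. Exon overlaps and canonical lengths came from GENCODE v44, in which all 10 members had the same start and end. Members and lists were chosen with earlier results of these data known. All members, gene pairs and the 3 most extreme called genes of each list in each direction are named. The genes closest in pattern to HSPD1 are not reported here.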

Additional observations from a re-analysis of the deposited data

How the results depend on the processing

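In 16 alternatives with the same thresholds no member changed its call, although HSPE1 passed the adjusted p-value alone in 4 and CLPX in 3 of them. With 1 exception the members kept their direction: TRAP1 went to 0.015 without O/A replicate 2, in a range of -0.044 to 0.015 when libraries were left out. The count of 2 upregulated and 0 downregulated members held in those fits and went to 5 and 1 with no fold change threshold and to 1 upregulated above an absolute log2 fold change of 0.5. Library totals as scaling moved the median of all genes from -0.00040 to -0.046. Across all genes, upregulated genes numbered 3868 with no fold change threshold, 1191 above 0.5 and 1514 on log2(FPKM + 1), and downregulated genes 1445 above 0.5.

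The lists moved near the thresholds. Of the further chaperones, 1 was upregulated under DESeq2, library totals, log2(FPKM + 0.1), log2(FPKM + 1) and above 0.5, and 1 to 2 when libraries were left out. Downregulated ones numbered 4 with library totals and on log2(FPKM + 0.1), 5 with no fold change threshold, 1 above 0.5 and 1 to 2 when libraries were left out. Of the other proteases 3 were upregulated with no fold change threshold, and 2 were downregulated above 0.5. Of the relatives in other compartments 8 were upregulated and 5 downregulated with no fold change threshold, and 3 upregulated above 0.5. GRPEL1 went to -0.037 with library totals, -0.037 on log2(FPKM + 0.1), -0.035 on log2(FPKM + 1) and -0.0067 without ethanol replicate 4, where leaving out libraries gave -0.0067 to 0.042. The ratio of CLPP to CLPX went to -0.023 without O/A replicate 1, in a range of -0.023 to 0.059. What caused these shifts was not tested, apart from the thresholds, which act by construction.

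Replicate numbers gave no pairing of libraries: those with the same number correlated at 0.039, -0.0021, -0.023 and 0.067. A fit with a replicate block called 5160 genes, against 5165 without, of which 5117 were shared, and no member changed its call. An exact sign-flip test of 4 same-numbered differences cannot go below p = 0.125, so with that replicate block no ratio passed, at unchanged differences of 0.21 (HSPD1 to HSPE1), 0.50 (HSPA9 to GRPEL1), -1.26 (HSPA9 to HSPA5), 0.34 (HSPA9 to HSPA8), -0.45 (TRAP1 to HSP90B1), 0.56 (LONP1 to LONP2) and 0.32 (AFG3L2 to SPG7).

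Depth limits CLPP most among the members, at 384 to 525 counts per library, and DNLZ, at 0 to 6, could not be tested.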

Other observations

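None of the 8 subunits of the cytosolic chaperonin, which folds actin and tubulin, passed both thresholds in edgeR's quasi-likelihood test, against 34.7% of all genes tested. By the adjusted p-value alone 1 was higher and 2 were lower, where 26.0% and 27.7% of all genes tested were. These subunits are part of the 19 relatives in other compartments counted above, and this smaller group was not among the planned comparisons. Their log2 fold changes ran from -0.13 for CCT3 to 0.088 for TCP1, with a median of -0.015, and both genes are named after their values were seen.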
